A study of Mus musculus with 16 samples.

Results

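The 8 genes described here take uracil and 5-fluorouracil (5-FU) out of DNA or act on the gap that is left: Ung, Tdg, Smug1 and Mbd4 encode DNA glycosylases, Parp1, Xrcc1 and Lig1 encode proteins of the later base excision steps, and Msh6 encodes a mismatch sensor. They were chosen by symbol and function, and all 8 were found among the 57132 genes of the count table and among the 19152 genes that passed a filter on low counts. The data are RNA-seq counts of whole mouse bone marrow in 16 libraries, 2 for each of 8 groups. The wild type (WT) animals were C57BL/6 males of 8 to 10 weeks (the genotype field spells the strain CB57BL/6), and the knockout (KO) animals were Nrf2-/- mice bred from Nrf2+/- parents, with no age or sex given. Nrf2, the product of Nfe2l2, is a transcription factor of the antioxidant response, and per the labels the allele leaves a mutant, inactive form. Each genotype received PBS (the vehicle), BMX-001 (a radioprotector, per the series title), 5-FU, or BMX-001 with 5-FU. The 5-FU dose was 20 mg/kg, repeated on day 7, and that of BMX-001 was 0.5 mg/kg, from 24 h ahead of the first 5-FU dose and at intervals of 3 days. Marrow was collected on day 10. The labels do not say that the 2 libraries of a group came from different animals, so p-values here measure the spread between libraries that may be technical repeats.

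5-FU is converted in cells to a nucleotide that blocks thymidylate synthase, so that dUTP and fluorinated dUTP accumulate and are built into DNA in place of thymidine. In base excision repair a glycosylase removes the wrong base, an endonuclease cuts the strand at the empty site, a polymerase fills the gap and a ligase seals it. Mismatch repair works on newly made DNA: a sensor that contains MSH6 recognises base mismatches, among them fluorouracil opposite guanine, and a stretch of the new strand is then removed and resynthesised. Marrow is rich in dividing precursor cells and is a main site of 5-FU toxicity.

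Promoter sequences are shown for 3 of the genes. Mbd4 was taken because its level differed between the Nrf2 genotypes in the 15-library fit described below, though not beyond the threshold with all 16 libraries. Msh6 and Lig1 were taken because their promoters hold an E2F-type motif, a sequence class bound by cell cycle transcription factors. The sequences come from RefSeq on build GRCm38.p6, written 5′ to 3′ on the strand of the gene. For Mbd4 the 250 bases before the start are given (chr6:115853342-115853591, minus strand). For Msh6 (chr17:87975054-87975083, plus strand) and Lig1 (chr7:13278841-13278870, plus strand) 30 bases around the motif are given, with the motif in capitals.
Mbd4: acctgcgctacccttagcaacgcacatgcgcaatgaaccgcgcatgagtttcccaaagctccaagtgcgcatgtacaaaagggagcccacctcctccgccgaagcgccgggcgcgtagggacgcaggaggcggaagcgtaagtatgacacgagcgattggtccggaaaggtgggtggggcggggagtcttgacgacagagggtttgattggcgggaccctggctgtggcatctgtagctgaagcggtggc
Msh6: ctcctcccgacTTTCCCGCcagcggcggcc
Lig1: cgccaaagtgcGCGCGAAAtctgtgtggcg
The E2F-type letters searched were TTTCGCGC, TTTGGCGC, TTTCCCGC and TTTGCCGC on both strands, in windows of 250 bases before and 50 after each start. They occurred in 2.26% of 32851 promoters and in 2 of the 10 promoters of the 8 genes, those of Msh6 and 1 of Lig1. The core of the antioxidant response element, the sequence Nrf2 binds (TGACNNNGC, both strands), occurred in 12.4% of all promoters and in 0 of these 10. A match describes letters in a window and shows no binding, and the lack of a match says only that these letters are not in this window.

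Library totals ran from 34387432 to 39909188 counts in WT and from 27305707 to 36588168 in KO. Nfe2l2 was at 102.2 to 121.8 normalised CPM (the share of a library's scaled total that falls on the gene) in the 8 WT libraries and at 6.481 to 16.66 in the 8 KO libraries, so each library's level went with its genotype label. KO BMX-001 replicate 1 stood apart from the other 15 libraries: the first principal component, with 30.9% of the variance, placed it at 111.9 and the others between -31 and 7.6. The calls are therefore given for all 16 libraries and for the 15 without it, and so are the sizes of change that differ between the fits. In both fits a gene is called at an adjusted p under 0.05 in edgeR's quasi-likelihood test, with the Benjamini-Hochberg adjustment over all genes tested. Per gene length Lig1, Parp1 and Msh6 had the highest transcript levels, and the glycosylase genes Mbd4, Ung and Smug1 the lowest. On the scale of CPM per kb of exon, the means over 15 libraries were 57.34 for Lig1, 33.31 for Parp1, 29.22 for Msh6, 7.767 for Tdg, 6.371 for Xrcc1, 4.651 for Mbd4, 3.085 for Ung and 0.97 for Smug1. The order was the same in 15 of 16 libraries, and in KO BMX-001 replicate 1 Mbd4 lay above Xrcc1. The median of 18227 genes on this scale was 2.736, so Lig1 lay above 96.1% of genes and Smug1 above 33.3%.

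Over the 15 libraries the coefficient of variation of CPM was 4.533% for Tdg, 5.391% for Msh6, 5.469% for Lig1 and 6.79% for Parp1, against a median of 8.818% over 9362 genes. Ung (8.203%) and Xrcc1 (8.289%) were near that median, and Mbd4 (10.69%) and Smug1 (11.49%) were above it. A smaller coefficient than that of Tdg was found in 2.65% of genes. With KO BMX-001 replicate 1 included, the coefficients of Msh6, Parp1, Lig1 and Ung were 14.29%, 15.7%, 14.23% and 12.94%.

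**Figure D1:**
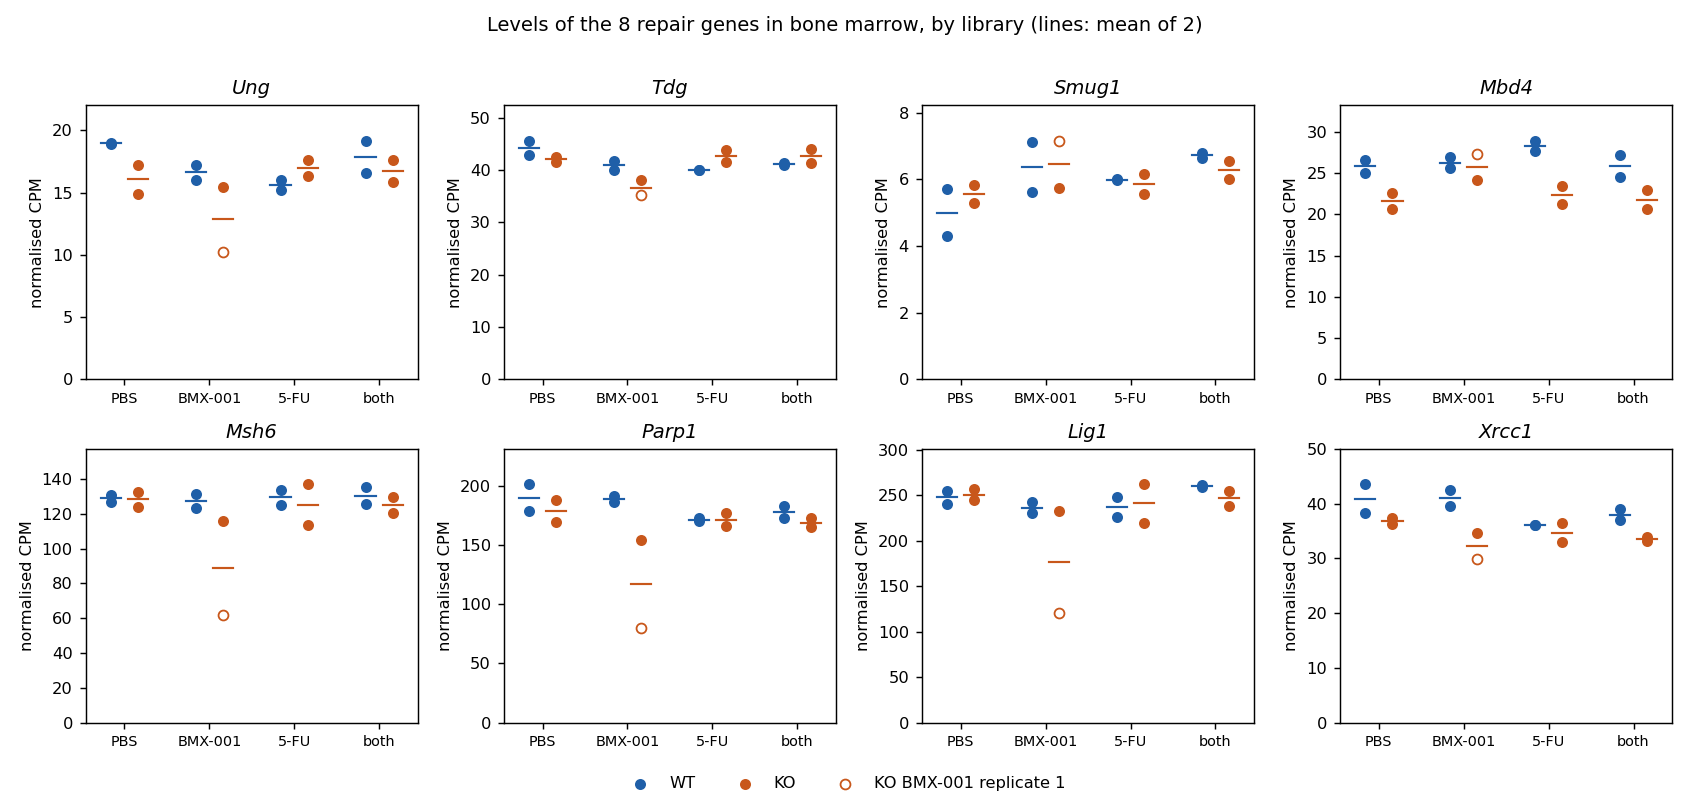
Normalised CPM (y axis, from 0) of the 8 repair genes in each of the 16 libraries, by treatment (x axis) and genotype (WT blue, KO orange); lines are means of 2 libraries and the open circle is KO BMX-001 replicate 1. For Msh6, Parp1, Lig1 and Ung the open circle lies far below all other points, and for Mbd4 the KO points lie below the WT points under PBS, 5-FU and both drugs.

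The first question the design allows is whether marrow without Nrf2 differs in these genes. Mbd4, a glycosylase with a methyl-CpG-binding domain that removes thymine or uracil opposite guanine, was at 22.58 and 20.69 CPM in KO PBS, 24.15 in KO BMX-001 replicate 2 and 27.33 in replicate 1, 21.29 and 23.46 in KO 5-FU, and 20.61 and 22.95 in KO BMX-001 with 5-FU. In WT it was at 26.65 and 25.06 under PBS, 25.61 and 26.91 under BMX-001, 28.92 and 27.69 under 5-FU, and 24.55 and 27.27 under both. KO BMX-001 replicate 1 lay within the WT range, and the other 7 KO libraries all lay below all 8 WT libraries. Such a split was seen in 32 genes, 0.167% of those tested (this count was added after the values were seen). In the 15-library fit Mbd4 was lower in KO by a log2 fold change of -0.24 ± 0.05 (SE; 95% interval -0.35 to -0.13, 0.846-fold, edgeR adjusted p = 0.031). With all 16 libraries the change was -0.22 ± 0.06 and was not called (edgeR adjusted p = 0.133), and DESeq2 on the same 16 gave -0.22 with an adjusted p of 0.034.

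No other member was called between genotypes: 1 of 8 was called in the 15-library fit, where 1.39% of all genes were, and 0 of 8 in the 16-library fit, where 0.178% were. At an unadjusted p under 0.05 there were 3 members with 15 libraries (13.6% of all genes) and 2 with 16 (12.7%). DESeq2 on all 16 libraries called 1 of the 8 (Mbd4), beside 338 of 16275 genes. Xrcc1, the scaffold that holds the repair ligase and polymerase together, came next. Its CPM in KO was 37.36 and 36.29 under PBS, 29.87 and 34.67 under BMX-001, 36.44 and 32.99 under 5-FU and 33.25 and 33.91 under both. In WT it was 43.55 and 38.27, 39.64 and 42.48, 36.17 and 36.17, and 39.02 and 37.04 in the same order. The KO pair of Xrcc1 lay below the WT pair under PBS (as for 18.4% of all genes), BMX-001 (24.5%) and both drugs (20.6%), and under 5-FU alone the pairs overlapped. The KO pair of Mbd4 lay below the WT pair under PBS, both drugs and 5-FU alone (22.7% of all genes). The log2 fold change of Xrcc1 was -0.16 ± 0.05 in the 15-library fit (edgeR adjusted p = 0.108) and -0.18 ± 0.05 with all 16 (adjusted p = 0.176).

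For Parp1, which senses strand breaks, the KO to WT log2 fold change over 15 libraries was -0.12 ± 0.04 (edgeR adjusted p = 0.232). The other 5 members had values between -0.08 and -0.01. With all 16 libraries Parp1 was at -0.21 ± 0.10, Msh6 at -0.16 ± 0.10, Ung at -0.15 ± 0.08 and Lig1 at -0.11 ± 0.11, none of them called (edgeR adjusted p 0.411, 0.529, 0.48 and 0.668). All 8 were below 0 in the 15-library fit, with a median of -0.07 beside 0.00 over all genes, and 7 of 8 in the 16-library fit, with a median of -0.15 beside 0.00. Markers of B lineage and erythroid cells were also called between genotypes in the 15-library fit. The sum of 8 B lineage markers was 730.8 to 1165 CPM in WT, 515.3 to 817 in the 7 KO libraries and 838 in KO BMX-001 replicate 1. All 8 had values below 0, 1 of them was called in the 15-library fit (Cd79a, -0.34, edgeR adjusted p = 0.0496) and 0 with 16 libraries. Of 9 erythroid markers 2 were called lower in the 15-library fit (Tfrc, -0.28, edgeR adjusted p = 0.0266, and Epb42, -0.22, adjusted p = 0.032) and 0 with 16, with sums of 40050 to 73470 CPM in WT, 46390 to 74900 in the 7 KO libraries and 68860 in KO BMX-001 replicate 1. The erythroid list was mixed: 6 of 9 had values below 0 and 3 above (up to 0.23), with a median of -0.04 in the 15-library fit. Of 18 proliferation genes 0 were called in either fit, 16 had values below 0 in the 15-library fit and 18 with 16. No gene of these lists was at 0 throughout, and the part of these cells in the Mbd4 difference was not tested. In whole marrow, fewer cells of a type and less RNA per cell cannot be told apart. The age and sex of the KO animals are not given, so neither can be told apart from genotype here.

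**Figure D2:**
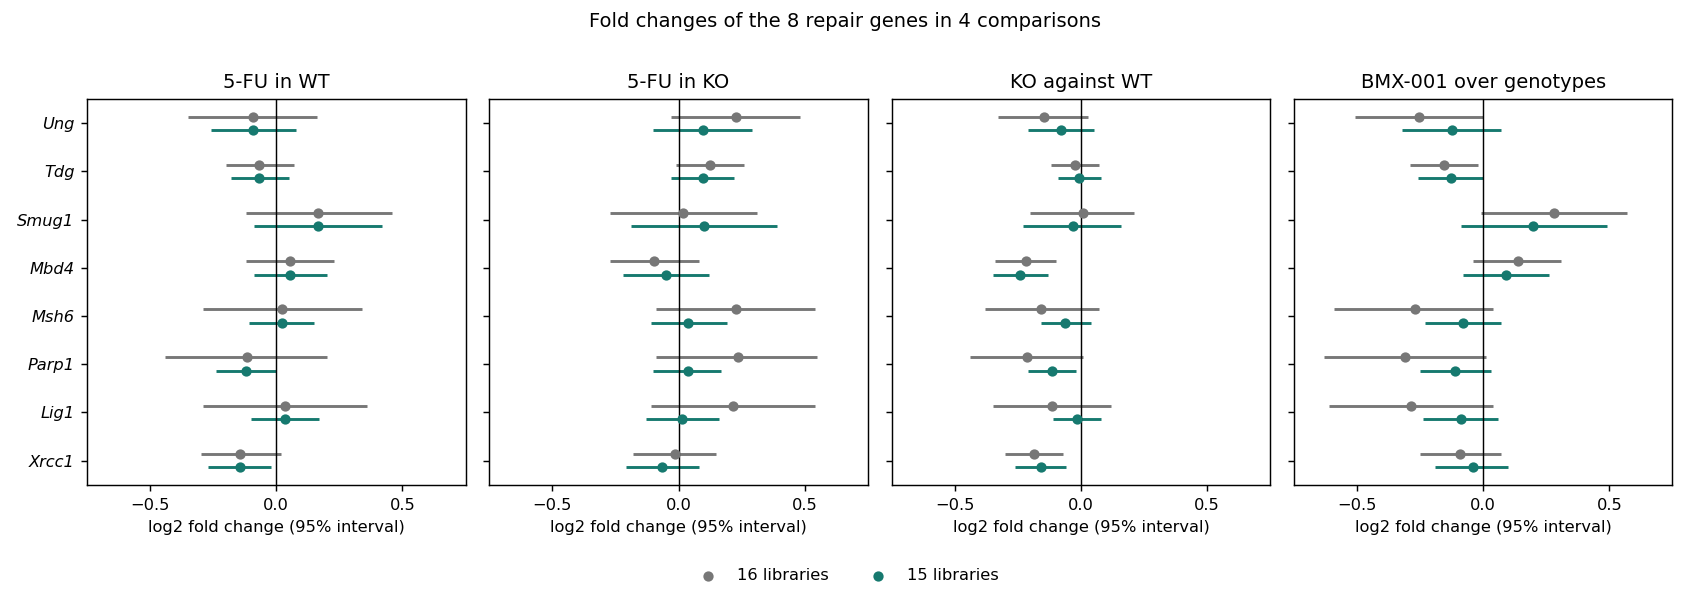
Log2 fold changes (x axis) of the 8 repair genes (y axis) in 4 comparisons, with 95% intervals as bars, for all 16 libraries (grey) and the 15 without KO BMX-001 replicate 1 (green). Mbd4 in KO against WT is the only green interval of a called gene, from -0.35 to -0.13, and the intervals of Msh6, Parp1 and Lig1 are narrower in green.

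The second question is whether 5-FU, with or without BMX-001, changed these transcripts by day 10. In WT, 0 of the 8 were called with 16 libraries (0.0574% of all genes were) and 0 with 15 (1.94% of all genes were). In KO, 0 of 8 were called with 16 libraries (1.9% of all genes) and 0 with 15 (3.49% of all genes). DESeq2 also called 0 of the 8 in either genotype, beside 214 of 13080 genes in WT and 863 of 14997 in KO. At an unadjusted p under 0.05 there was 1 member (Xrcc1) in WT with 15 libraries (17.2% of all genes) and 0 with 16 (9.54%), and in KO 0 with 15 (15.7%) and 0 with 16 (17.2%). In the 15-library fit the 95% intervals of all 8 genes in both genotypes lay between -0.27 and 0.42 on the log2 scale, or 0.829-fold and 1.34-fold. With all 16 libraries they lay between -0.44 and 0.55.

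Ung, the main uracil glycosylase at replication forks, was at 18.93 and 19.00 CPM in WT PBS, 16.04 and 17.25 in WT BMX-001, 16 and 15.18 in WT 5-FU, and 19.15 and 16.55 under both drugs. In KO it was at 14.92 and 17.19, 10.24 and 15.46, 17.60 and 16.33, and 17.59 and 15.84. The WT pair under 5-FU alone was below the PBS pair, while the KO pairs overlapped, and the groups with both drugs overlapped PBS in each genotype. For 5-FU alone against PBS in WT the log2 fold change of Ung was -0.28 ± 0.12 in the 15-library fit (edgeR adjusted p = 0.14) and -0.28 ± 0.17 with all 16 (adjusted p = 0.464). Under PBS the KO pair lay below the WT pair, as it did for 18.4% of all genes, and under 5-FU alone it lay above, as it did for 23.8%. The difference between genotypes in the effect of 5-FU, with or without BMX-001, was 0.19 ± 0.12 over 15 libraries (edgeR adjusted p = 0.779) and 0.32 ± 0.17 over 16 (adjusted p = 0.689).

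Tdg, which removes thymine, uracil and fluorouracil opposite guanine, lay in a narrower range. Its WT CPM was 42.86 and 45.60 under PBS, 40.12 and 41.82 under BMX-001, 40.09 and 39.97 under 5-FU, and 41.00 and 41.45 under both. Its KO CPM was 42.50 and 41.66, 35.19 and 38.05, 43.90 and 41.51, and 44.15 and 41.42. The highest library was WT PBS replicate 2 and the lowest KO BMX-001 replicate 1. The 5-FU effect on Tdg was -0.07 ± 0.05 in WT and 0.10 ± 0.06 in KO (15 libraries), and their difference was 0.16 ± 0.08 (edgeR adjusted p = 0.712).

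Smug1, a glycosylase for uracil, 5-hydroxymethyluracil and fluorouracil, had the lowest level of the 8 and, in the 15-library fit, the widest intervals. In WT it was at 5.718 and 4.294 CPM under PBS, 7.140 and 5.631 under BMX-001, 6.009 and 5.970 under 5-FU, and 6.639 and 6.803 under both. In KO it was at 5.298 and 5.822, 7.159 and 5.749, 5.559 and 6.159, and 6.544 and 6.016. Treated libraries were often above PBS, but the spread of the pairs covered most of the range. The 5-FU effect was 0.17 ± 0.12 in WT and 0.10 ± 0.14 in KO (15 libraries), with an upper bound of 0.42 in WT. For Mbd4 the effect was 0.05 ± 0.07 in WT and -0.05 ± 0.08 in KO. With all 16 libraries the KO values became 0.02 ± 0.13 for Smug1 and -0.10 ± 0.08 for Mbd4.

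Among the later base excision genes, the CPM of Parp1 in WT was 178.3 to 201 without 5-FU and 169.9 to 182.7 with it, and in KO 153.7 to 187.9 in 3 libraries without 5-FU (79.92 in KO BMX-001 replicate 1) and 164.8 to 176.6 with it. These ranges overlapped, with log2 fold changes of -0.12 ± 0.06 in WT and 0.04 ± 0.07 in KO over 15 libraries (edgeR adjusted p = 0.302 and 0.841). Lig1, which seals Okazaki fragments and long repair patches, was at 230.9 to 255.2 CPM without and 226.1 to 261.4 with 5-FU in WT, and its changes were 0.04 ± 0.06 and 0.01 ± 0.07. Xrcc1 had the lowest value of the 8 in WT, -0.14 ± 0.06 (95% interval -0.27 to -0.02, edgeR adjusted p = 0.227), and -0.06 ± 0.07 in KO. Msh6, the mismatch sensor, was at 123.5 to 131.1 CPM without and 125.1 to 135.6 with 5-FU in WT, and at 116 to 132.6 (3 libraries) and 113.6 to 136.9 in KO. Its changes were 0.02 ± 0.06 in WT and 0.04 ± 0.07 in KO, with 95% intervals of -0.11 to 0.15 and -0.11 to 0.19. With all 16 libraries the 5-FU values in KO were 0.23 ± 0.15 for Msh6, 0.23 ± 0.15 for Parp1, 0.21 ± 0.15 for Lig1 and 0.23 ± 0.12 for Ung (edgeR adjusted p 0.43, 0.423, 0.475 and 0.341), and that of Xrcc1 was -0.01 ± 0.07.

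For 5-FU alone against PBS, 0 of 8 members were called in WT with 16 libraries (0.00522% of all genes) or 15 (6.87%), and 0 in KO with 16 (0.454%) or 15 (2.82%). At an unadjusted p under 0.05 Ung alone passed, in WT with 15 libraries (23.9% of all genes), and none passed in WT with 16 (14.4%) or in KO with 15 (16.1%) or 16 (9.42%). DESeq2 called 0 of the 8 in both, beside 439 of 14997 genes in WT and 363 of 14997 in KO. In WT the pairs did not overlap for Ung, Tdg, Parp1 and Xrcc1, which were lower, and for Smug1 and Mbd4, which were higher. With 2 libraries a side this was so for 27.5% of all genes in the lower direction and 26.7% in the higher. No member was called for the difference between genotypes in the effect of 5-FU either, with 0% of all genes called in both fits. At an unadjusted p under 0.05 it had 0 members, beside 6.79% of all genes with 16 libraries and 6.98% with 15. DESeq2 called 0 of the 8, beside 27 of 3496 genes. These comparisons share their PBS libraries with those above.

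The third question is whether BMX-001 changed these genes by itself or when added to 5-FU. Averaged over genotypes, BMX-001 against PBS called 0 of 8 members, as it called 0% of all genes in both fits. DESeq2 on all 16 libraries called 0 of the 8, beside 718 of 15636 genes. At an unadjusted p under 0.05 there was 1 member, Tdg, in each fit (21% of all genes with 16 libraries, 15.3% with 15). Tdg was at -0.13 ± 0.06 in the 15-library fit (edgeR adjusted p = 0.326) and -0.16 ± 0.06 with 16 (adjusted p = 0.193). With 16 libraries Parp1 was at -0.31 ± 0.15, Lig1 at -0.29 ± 0.15, Msh6 at -0.27 ± 0.15 and Ung at -0.25 ± 0.12. Without KO BMX-001 replicate 1 these became -0.11, -0.09, -0.08 and -0.12 in the same order. Xrcc1 was at -0.09 ± 0.07 with 16 libraries and -0.04 ± 0.07 with 15. Smug1 and Mbd4 had values above 0 in both fits. Smug1 was at 0.282 ± 0.135 with 16 libraries and 0.199 ± 0.137 with 15. Mbd4 was at 0.14 ± 0.08 with 16 libraries and 0.09 ± 0.08 with 15. Added to 5-FU, BMX-001 called 0 of 8 in WT (0% of all genes in both fits) and 0 of 8 in KO (0% with 16 libraries, 0.00508% with 15). DESeq2 also called 0 of the 8 in both, beside 0 of 34165 genes in WT and 6 of 34165 in KO. No member had an unadjusted p under 0.05 in WT (3.93% of all genes with 16 libraries, 8.92% with 15) or KO (2.61% and 5.71%). The 15-library values of the 8 lay between -0.13 and 0.20 in WT and between -0.05 and 0.10 in KO.

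In KO BMX-001 replicate 1, 7 of the 8 genes lay outside the range of the other 15 libraries. Parp1 was at 79.92 CPM there, 0.463 times the median of the other 15 libraries, Msh6 at 61.92 (0.489 times), Lig1 at 120.2 (0.492 times) and Ung at 10.24 (0.619 times). Xrcc1 (0.820 times) and Tdg (0.848 times) were also below all 15 others, Smug1 (1.20 times) was above all 15, and Mbd4 (1.11 times) was within their range. In this library 30% of all genes tested lay below and 30.6% above all 15 others, so 6 of 8 below and 1 above describe a library that differed broadly. The sum of 18 proliferation genes was 4832 CPM there against 7325 to 9433 elsewhere in KO and 8652 to 9207 in WT, and that of 4 granulocyte precursor markers was 546.9 against 1939 to 3151 in the other 15. Its partner, KO BMX-001 replicate 2, had Parp1 at 153.7, Msh6 at 116 and Lig1 at 232.5 CPM. The part of cell makeup or handling in these values was not tested.

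**Figure D3:**
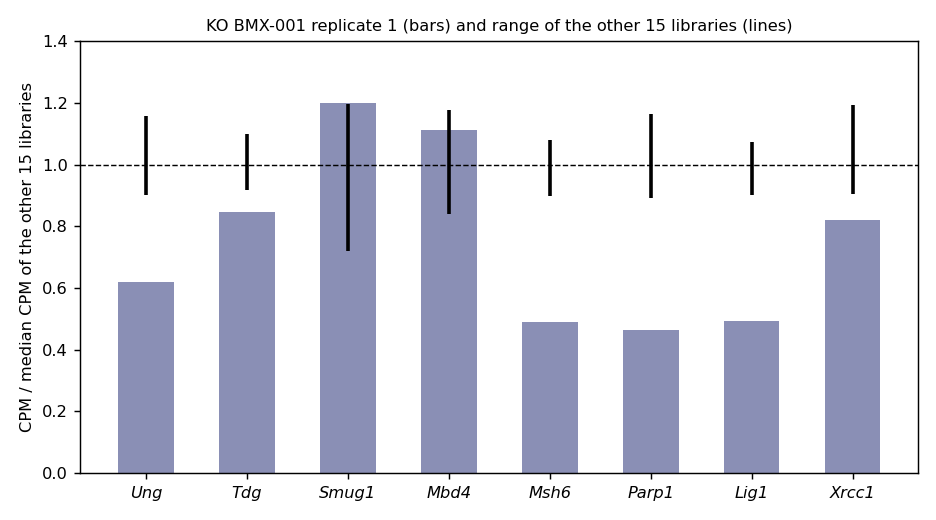
CPM of each repair gene in KO BMX-001 replicate 1 divided by the median of the other 15 libraries (bars, y axis from 0), with the range of those 15 on the same scale (black lines). The bars of Msh6, Parp1 and Lig1 end below 0.5 and those of Mbd4 and Smug1 above 1.

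The other genes of these pathways were taken from lists by function. Of 8 mismatch repair genes, Msh6 among them, 0 were called in any of the 9 comparisons in either fit. All 8 had 5-FU values above 0 in WT, from 0.02 to 0.18 with a median of 0.08 in the 15-library fit, beside 0.01 over all genes, and 7 of 8 in KO, with a median of 0.09 beside 0.03. Of 16 genes of the base excision steps after the glycosylase, 0 were called for 5-FU in either genotype or for KO against WT. Of 15 replication factors shared with repair, the polymerase delta subunit genes Pold1 (-0.33, edgeR adjusted p = 0.0172) and Pold4 (-0.45, adjusted p = 0.0418) were called lower for 5-FU alone in WT in the 15-library fit (6.87% of all genes were called). Of 8 genes of dUTP and thymidylate supply, Samhd1, which degrades deoxynucleotides, was called lower under 5-FU alone in KO in the same fit (-0.37, edgeR adjusted p = 0.0458, 2.82% of all genes were called). With 16 libraries none of these 3 was called.

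Of the 11 DNA glycosylase genes, Neil1, which removes oxidised pyrimidines, was called lower under 5-FU, and the 4 uracil glycosylases were not. Neil1 was at 13.55 and 13.32 CPM in WT PBS and 13.20 and 13.33 in WT BMX-001, and at 8.013 and 6.167 in WT 5-FU and 7.308 and 9.325 in WT with both drugs. In KO it was at 10.63 and 8.869 under PBS, 28.13 and 11.18 under BMX-001, 6.913 and 7.980 under 5-FU, and 4.826 and 5.217 under both. In each genotype every library with 5-FU was below every library without it, as was so for 4.49% of all genes in WT and 4.43% in KO. The log2 fold change was -0.80 ± 0.11 in WT and -0.77 ± 0.13 in KO over 15 libraries (edgeR adjusted p = 0.00221 and 0.00128). With all 16 it was -0.80 ± 0.22 (adjusted p = 0.242) and -1.18 ± 0.23 (adjusted p = 0.0163). The difference between genotypes was 0.03 ± 0.17 over 15 libraries (adjusted p = 0.986) and -0.38 ± 0.31 over 16.

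Some erythroid and monocyte markers were also called lower under 5-FU. In the 15-library fit 4 of 9 erythroid markers were called lower in WT (1.94% of all genes were called) and 6 of 9 in KO (3.49%), and with 16 libraries 0 in WT and 4 in KO. Their sum was 50390 to 73470 CPM without and 40050 to 55570 with 5-FU in WT, and 66530 to 74900 (3 libraries) and 46390 to 57300 in KO. Of 5 monocyte markers 1 was called lower in WT and 3 in KO with 15 libraries and 0 in either with 16, with sums of 866.9 to 962.1 without and 722.2 to 826.8 with 5-FU in WT and 874.3 to 1252 and 663.6 to 797.1 in KO. In the 15-library fit 3 erythroid markers in WT and 1 in KO had values above 0. All 8 B lineage markers (median -0.34 in WT and -0.18 in KO) and all 6 maturing neutrophil markers were below 0 in both genotypes. All 5 T and NK markers and all 4 megakaryocyte markers were above 0 in WT and KO. In these 4 lists 0 were called for this comparison. None of these markers was at 0 throughout. In KO BMX-001 replicate 1, where Neil1 was highest, the monocyte sum was 387.5 and the erythroid sum 68860. The part of these cells in the Neil1 change was not tested.

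**Figure D4:**
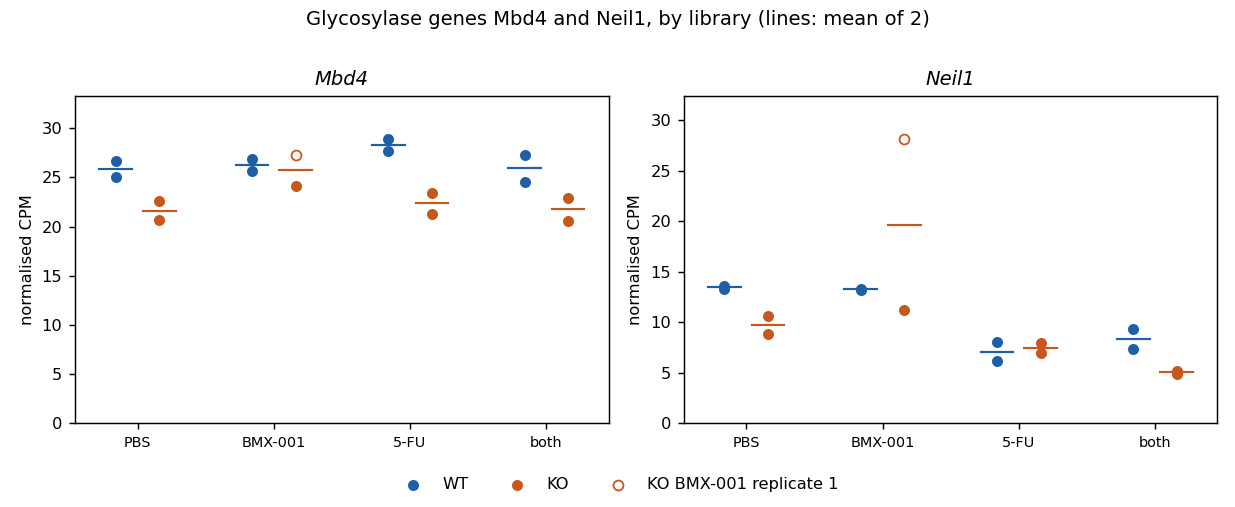
Normalised CPM (y axis, from 0) of Mbd4 and Neil1 in each library by treatment (x axis) and genotype (WT blue, KO orange); lines are means of 2 libraries and the open circle is KO BMX-001 replicate 1. Mbd4 separates by genotype apart from the open circle, and Neil1 is below 9.5 in all 8 libraries with 5-FU.

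Over the 15 libraries the gene whose log2 CPM most resembled that of Mbd4, among 9038 genes, was Igf1 (Pearson r = 0.941, Spearman rho = 0.939), followed by Nfe2l2 itself (r = 0.86, rho = 0.868) and Zbtb14 (r = 0.847, rho = 0.857). The libraries share genotype, so a gene that differs between WT and KO can resemble Mbd4 through genotype. The part of genotype in these values was not tested. Lig1 was most like Mybl2 (r = 0.866, rho = 0.918), and Xrcc1 like Chchd10 (r = 0.887, rho = 0.875). The closest genes were Prpf6 for Msh6 (r = 0.856, rho = 0.761), Fam50a for Parp1 (r = 0.911, rho = 0.893) and Mrpl57 for Ung (r = 0.901, rho = 0.911). With KO BMX-001 replicate 1 included they were others: Mcm6 for Msh6 (r = 0.988, rho = 0.779), Tcof1 for Parp1 (r = 0.99, rho = 0.894) and Cdk4 for Ung (r = 0.964, rho = 0.897). Those closest to Mbd4 were then Srsf10 (r = 0.846, rho = 0.891), Banp (r = 0.844, rho = 0.862) and Ap1ar (r = 0.834, rho = 0.809). Neither Igf1 nor Nfe2l2 was among them. These are descriptions of the most similar of many genes and carry no test.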

How the data were processed

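The deposited values are whole-number counts of each Ensembl gene, 1 column per library. The submitters' processing notes name featureCounts, Salmon 1.4.0, DESeq2 1.38.3, Trim Galore 0.6.4, FastQC 0.12.1, R 4.3.0 and build GRCm39. The deposited counts are named after featureCounts. The aligner and the strand setting: not given in the sources used here. Symbols (51880 of 57132 IDs) and exon lengths were joined by gene ID from GENCODE M21, an annotation of build GRCm38.

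Counts were fitted in R 4.3.3 with edgeR 4.0.16 (filterByExpr, TMM, 8 group means, robust quasi-likelihood test, 8 residual degrees of freedom; limma 3.58.1 was loaded). DESeq2 1.42.0 was an alternative. Without KO BMX-001 replicate 1, 19694 genes were tested. The 9 comparisons were 5-FU (alone or with BMX-001) against the groups without it in each genotype, their difference, KO against WT over treatments, 5-FU alone against PBS in each genotype, BMX-001 against PBS over genotypes, and both drugs against 5-FU in each genotype. The edgeR fit was also run on simulated counts, for 5-FU in WT only. The simulation held no deviating library and no change as small as that of Mbd4, so it does not test those cases. Libraries of a group differed by more than sampling noise (chi-square per degree of freedom 8.904 to 146).

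The members and gene lists were chosen with earlier results of these data known. All 8 members are named in each comparison, and of each list at most the 3 called genes of smallest p; 1 such gene is not reported here. The search for likeness took genes whose mean log2 CPM reached 3. Where exons overlap a gene on the opposite strand (Tdg, Mbd4, Msh6 and Lig1), reads of the pair cannot be told apart without strand; the largest overlap was 367 bases. Replicate numbers did not pair the libraries: of 28 pairs of groups, 9 had a correlation of same-numbered deviations over 0.1 (range -0.564 to 0.401).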

Additional observations from a re-analysis of the deposited data

Results flagged for a closer look

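In KO BMX-001 replicate 1 the CPM of Ung (10.24), Msh6 (61.92), Parp1 (79.92) and Lig1 (120.2) lay farther below the next of the 8 KO libraries than Dixon's test at the 95% level allows. All 4 come from the same library. The test was made for 8 genes in 2 genotypes, 16 sets in all, and chance marks about 1 set in 20.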

How the results depend on the processing

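The number of the 8 genes called stayed at 0 under each alternative run for 5-FU in WT, 5-FU alone in either genotype and BMX-001 added to 5-FU in either genotype. Leaving out 1 library at a time gave 0 to 4 called for 5-FU in KO, 0 to 4 for the difference between genotypes, 0 to 6 for KO against WT and 0 to 5 for BMX-001 over genotypes. The highest number came each time on leaving out KO BMX-001 replicate 2, when the deviating library stands alone for its group and is assumed to vary like the other groups. In those fits 6008, 3645, 4467 and 7080 of 20196 genes were called in the same order of comparisons. The members were Ung, Msh6, Parp1 and Lig1 for 5-FU in KO and for the difference, with Mbd4 and Xrcc1 added for KO against WT, and Ung, Tdg, Msh6, Parp1 and Lig1 for BMX-001. For KO against WT, DESeq2 called 1 of the 8 (Mbd4), beside 338 of 16275 genes. The fit without KO BMX-001 replicate 1 also called Mbd4 alone of the 8, beside 273 of 19694 genes. With no filter on low counts 1 of the 8 was called for BMX-001 over genotypes (Parp1, -0.32, edgeR adjusted p = 0.0414), beside 1996 of 34165 genes. The cause was not tested. With the replicate number as a block, 0 of the 8 were called in each of the 9 comparisons, and the block changed no call of Neil1.

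Mbd4 in KO against WT ranged from -0.24 to -0.20 over 20 alternatives, with adjusted p from 0.0111 to 0.359, and was called in 3 of them. Neil1 was called for 5-FU in 15 of 21 alternatives in KO (adjusted p 4.4e-11 to 0.206) and in 5 of 21 in WT. Its difference between genotypes turned from -0.378 to 0.029 without KO BMX-001 replicate 1, and leaving out 1 library at a time gave -0.625 to 0.029. It was called in 1 of 20 alternatives, without KO BMX-001 replicate 2 (edgeR adjusted p = 0.0151).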
